A study of Mus musculus with 40 samples.

Results

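Mouse Hox genes lie in 4 clusters, Hoxa on chromosome 6, Hoxb on chromosome 11, Hoxc on chromosome 15 and Hoxd on chromosome 2. Gene probes were taken as members when their symbol was Hoxa, Hoxb, Hoxc or Hoxd followed by a number, and 27 genes found in this way are described here, of the 14188 gene symbols named over the series. They comprised 8 Hoxa, 7 Hoxb, 5 Hoxc and 7 Hoxd genes. On each of the 3 array designs a gene had 1 probe of 60 bases, with the same sequence on every design that held it, and 25 of the 27 genes were on all 3 designs, Hoxd11 and Hoxd12 being on the late arrays only.

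Hox genes encode homeodomain transcription factors that give cells their identity along the head to tail axis. Genes of 1 number in different clusters are paralogs, and a low number marks the end of a cluster whose genes are used first and furthest forward in the embryo, in the hindbrain, while high numbers belong to the trunk and tail. HOX proteins bind DNA together with the TALE homeodomain cofactors, among them the MEIS proteins. Retinoic acid (RA), the active form of vitamin A, is a known inducer of Hox genes in embryonal carcinoma and embryonic stem (ES) cells, through RA receptors that bind direct repeats of a half-site, and response elements of this kind are known at Hoxb1.

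The 40 samples were mouse ES cells hybridised to 2-colour Agilent oligonucleotide arrays of 3 experiments, with the cell RNA in Cy3 and Universal Mouse Reference RNA, a pool from cultured cell lines, in Cy5 on every array. In 12 arrays, 4 lines were each grown for 3 days in complete medium with leukemia inhibitory factor (LIF+), in the same medium without it (LIF-) and in LIF medium with 1 µM RA (RA), with 1 array per line and medium. The lines were a clone with an integrated Nanog transgene (Nanog/EF1#6, strain 129SvEv-Tac) with its parental line ES 129.3, and a clone that carried Nanog on an episomal vector (strain 129Sv) with its parental line MG1.19. By the paper MG1.19 expresses polyoma large T antigen. The labels give a later passage for ES 129.3 than for MG1.19 and none for the clones. The other arrays held ZHBTc4 ES cells of strain 129/Ola, in which tetracycline (Tet) switches off the Pou5f1 transgene that keeps the cells undifferentiated, harvested before Tet and every 24 hr up to 120 hr, in 3 arrays per time (late arrays), or before Tet and after 3, 6, 12 or 24 hr, in 2 arrays per time (early arrays). Every group was thus a modified clone or an established line, each transgenic construct was represented by 1 clone, and the description of the series names other parental lines for the Nanog clones than the sample labels do. Nothing in the labels said that arrays of 1 time point came from separate cultures, so p-values measure the spread between these arrays, which may be technical, and a clone and its parent are related, so that p-values over the 4 lines may be too small.

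A level is given as log2(Cy3/Cy5), the log2 ratio of the cells' signal over the reference after background correction and normalization within the array, and a change is the difference of 2 such levels. The dyes were not swapped, so a dye effect enters every level, and it drops out of a change only as far as it was the same on both sides. An estimate of Cy5 bleaching, made in the way the study describes, differed between arrays, from -0.90 to 0.71 in the Nanog experiment, -0.33 to 0.44 on the late arrays and -0.97 to 0.98 on the early arrays (log2 scale). Levels of different genes were not set against each other. A gene was called when limma's adjusted p (Benjamini-Hochberg over all gene probes) was at most 0.05 and the change was at least 1.5-fold. Hox signals were dim. The Cy3 signal of a Hox probe exceeded the 95th percentile of the negative control spots on 21 to 24 of 25 probes per array in the Nanog experiment, on 21 to 25 of 25 on the early arrays and on 12 to 20 of 27 on the late arrays, where 4 of the 27 genes passed it on no array, so that folds of the dimmest members are understated. In these bulk samples fewer cells of a type and less RNA per cell cannot be told apart. Medium and Tet labels went with their markers. Socs3, a LIF target, was lower in LIF- medium in all 4 lines, with changes of -2.93 to -2.05. The RA-degrading enzyme Cyp26a1 was higher on RA in all 4 lines, by 2.14 to 3.03. Pou5f1 on the late arrays was lower at every later time than at 0 hr, by -2.18 to -2.07. The transgene label did not go with the Nanog level in both clones. In LIF+ medium Nanog was at 2.48 in the integrated clone and at 1.61 in ES 129.3. In the episomal clone it was at 1.28, below the 1.91 of MG1.19. Whether the Nanog probe detects the transgenes was not tested. Levels of the ES cell marker list, 10 genes, averaged 2.23 to 3.00 in the 4 LIF+ arrays.

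The probes of the 7 genes that the results turn on are identified by the first 30 of their 60 bases. These are printed here in lower case with no base singled out, and show which oligonucleotide gave each value. The probes were not placed on transcripts. The longest run of bases that any pair of Hox probes shared was 10.
Hoxb1: accaacccttaatcttaatccagccaactc
Hoxd1: ccacagggtaggtaaggattagaatctgaa
Hoxa2: tctatgtgattttcctgaaaaacaaaacag
Hoxa5: ctgtagtgtcagtactaaggtgactttctg
Hoxb6: tcgagtctcatttcgtccatgtcccccgtg
Hoxa7: acaggaccctggctgcacaggacagttgga
Hoxa10: tgagagaagggagatattgtttggatttcc

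Of the 25 Hox genes measured on the Nanog arrays, 17 have at least 1 RefSeq promoter window (GRCm38.p6), and so do 5 of the 6 that were called on RA below, Hoxb6 having none. The 250 bases before the start of transcription are shown for Hoxb1, Hoxa2, Hoxa5 and Hoxa7, which rose on RA, and for Hoxd4, which has more than 1 half-site in its window and a change of 0.11 on RA. Capitals mark matches, on either strand, to the RA receptor half-sites AGGTCA (the consensus), GGGTCA (first base changed), AGTTCA (an inner base changed) and GGTTCA (both changed), or to TGATNNAT, the letters of the composite HOX and cofactor site known from the autoregulatory element of Hoxb1. The sequences run in the direction of transcription.
Hoxb1, chr11:96365508-96365757 (plus strand): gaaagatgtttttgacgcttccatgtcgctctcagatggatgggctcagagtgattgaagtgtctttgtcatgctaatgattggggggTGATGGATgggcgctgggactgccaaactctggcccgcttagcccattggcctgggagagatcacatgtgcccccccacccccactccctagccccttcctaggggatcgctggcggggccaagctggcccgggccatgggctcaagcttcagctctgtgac
Hoxa2, chr6:52164832-52165081 (minus strand): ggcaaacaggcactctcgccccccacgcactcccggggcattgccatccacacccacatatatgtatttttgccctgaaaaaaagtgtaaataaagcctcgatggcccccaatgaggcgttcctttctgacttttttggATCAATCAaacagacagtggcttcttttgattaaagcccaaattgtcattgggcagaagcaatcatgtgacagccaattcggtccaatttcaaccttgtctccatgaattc
Hoxa5, chr6:52204588-52204837 (minus strand): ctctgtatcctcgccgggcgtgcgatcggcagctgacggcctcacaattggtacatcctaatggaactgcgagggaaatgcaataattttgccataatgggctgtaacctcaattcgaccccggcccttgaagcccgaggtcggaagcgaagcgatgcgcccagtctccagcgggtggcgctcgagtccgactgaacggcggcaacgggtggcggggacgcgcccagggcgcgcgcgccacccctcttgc
Hoxa7, chr6:52218574-52218823 (minus strand): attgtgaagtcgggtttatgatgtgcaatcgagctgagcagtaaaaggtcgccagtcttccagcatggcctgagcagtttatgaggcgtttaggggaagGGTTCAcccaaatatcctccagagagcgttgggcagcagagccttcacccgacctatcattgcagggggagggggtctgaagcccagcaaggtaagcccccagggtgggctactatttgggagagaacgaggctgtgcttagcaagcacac
Hoxd4, chr2:74721728-74721977 (plus strand): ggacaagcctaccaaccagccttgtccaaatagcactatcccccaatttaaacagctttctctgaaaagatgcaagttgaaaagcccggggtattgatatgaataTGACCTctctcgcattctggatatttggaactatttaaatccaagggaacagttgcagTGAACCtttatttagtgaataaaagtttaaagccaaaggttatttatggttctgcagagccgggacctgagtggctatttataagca

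A half-site of any of these 4 spellings was found in 38.6% of all 32851 windows of the mouse table, in 1 of the 5 called Hox genes with a window (Hoxa7, GGTTCA, 151 bases before the start) and in 6 of the 12 others. Hoxd4 held AGGTCA and GGTTCA, both on the opposite strand, 145 and 87 bases before its start. Half-sites spaced as a direct repeat with 2 or 5 bases between them were in 0.174% and 0.0883% of all windows and in none of the Hox windows. TGATNNAT was in 7.68% of all windows and in those of Hoxb1, 162 bases before its start, Hoxa2, 111 bases before its start, and Hoxb8. These matches describe letters in a short stretch and are not binding sites shown by the arrays.

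On RA, 6 of the 25 measured Hox genes were called, all of them higher than in LIF+ medium, where 5.86% of the 37654 genes and unnamed probes tested were called, 4.66% of them higher. They were Hoxb1, which patterns the hindbrain, Hoxa2, the head neural crest and hindbrain gene, Hoxa5, Hoxb6 and Hoxa7 of the middle of the clusters, and Hoxa10, a gene of the posterior trunk. None of the 25 was called lower. The median change over the 25 was 0.33, against -0.0057 over everything tested, and 20 of 25 lay above 0. In 19 of the 25 the change was above 0 in all 4 lines, as it was in 17.6% of all tested, and in 13 of 25 every RA level was above every LIF+ level, as it was in 6.79%.

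**Figure D1:**
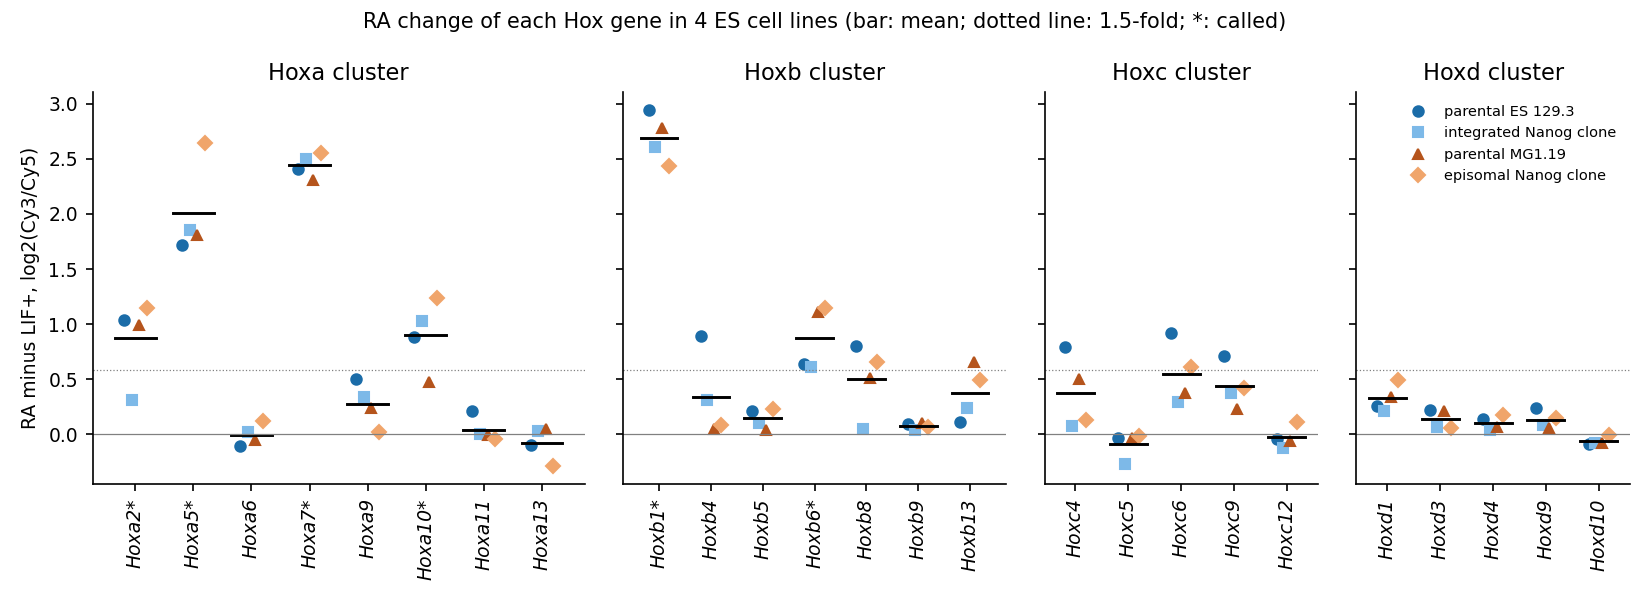
Change of each of 25 Hox genes from LIF+ to RA medium on the y axis, as log2(Cy3/Cy5), with the genes in order of paralog number within each cluster on the x axis. Points are the 4 lines, the bar is their mean, the dotted line marks 1.5-fold and an asterisk marks a called gene. The changes of Hoxb1, Hoxa7 and Hoxa5, which have the highest means of the plot, lie between 1.72 and 2.94 in every line, and no gene of the Hoxc or Hoxd cluster was called.

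For Hoxb1 the LIF+ levels were 0.53 in ES 129.3, 0.15 in the integrated clone, 0.02 in MG1.19 and 0.56 in the episomal clone, and the RA levels were 3.47, 2.76, 2.80 and 2.99. The change was 2.69 (SE 0.10, n = 4 lines), which is 6.46-fold, with limma's adjusted p = 1.61e-05. It ranged from 2.43 to 2.94 between lines, so that the groups were far apart. Its paralog Hoxd1 had LIF+ levels of 0.18, 0.10, 0.07 and 0.02 and RA levels of 0.44, 0.31, 0.41 and 0.52. These groups did not overlap, but the change of 0.33 (1.25-fold, limma's adjusted p = 0.0265) was under the 1.5-fold threshold, and its Cy3 signals of 433 to 519 were close to the negative controls, whose 95th percentile was 399 to 433. The difference between Hoxb1 and Hoxd1 was not tested.

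Hoxa2 had LIF+ levels of -0.16 in ES 129.3, -0.19 in the integrated clone, -0.24 in MG1.19 and -0.34 in the episomal clone, and RA levels of 0.88, 0.12, 0.75 and 0.81. All 4 lines were higher on RA, the integrated clone by 0.31 and the other 3 by 0.99 to 1.14, and the change was 0.87 (1.83-fold, limma's adjusted p = 0.00408). The call was lost without MG1.19 (adjusted p = 0.0542) and with the study's error variance (adjusted p = 0.0512). This probe was also dim, with Cy3 signals of 419 to 599. The other members with numbers up to 5 spread widely. Hoxa5, used in the neck and lung, rose from levels of -0.52, -0.61, -0.45 and -0.82 to 1.20, 1.24, 1.36 and 1.82 in that order of lines. Its change was 2.01 (4.02-fold, SE 0.13, limma's adjusted p = 0.000118), and the highest RA level and the lowest LIF+ level were both those of the episomal clone. The other paralogs of number 5 were not called, with changes of 0.15 for Hoxb5 (adjusted p = 0.0607) and -0.09 for Hoxc5 (adjusted p = 0.355), the lowest change among the 25. Nor were those of numbers 3 and 4, with 0.14 for Hoxd3 (adjusted p = 0.0724), 0.34 for Hoxb4 (adjusted p = 0.126), 0.37 for Hoxc4 (adjusted p = 0.0729) and 0.11 for Hoxd4 (adjusted p = 0.347), all from limma. Hoxb4 and Hoxc4 showed values of 0.90 and 0.80 in ES 129.3 and down to 0.05 and 0.07 in another line. For Hoxb4 the ES 129.3 value rests partly on its LIF+ level of -0.55, against -0.06 to 0.09 in the other lines.

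Hoxa7, a trunk gene, had the most uniform of the large changes. Its LIF+ levels were -1.54 in ES 129.3, -1.77 in the integrated clone, -1.91 in MG1.19 and -1.93 in the episomal clone, and its RA levels were 0.87, 0.73, 0.40 and 0.63. The 4 changes lay within 2.30 to 2.56 with a mean of 2.44 (SE 0.06, 5.43-fold, limma's adjusted p = 3.98e-06). Almost all of it was in the cells' channel, where normalised log2 Cy3 differed by 2.62 on average and the reference channel by 0.18. Hoxb6 went from -0.41, -0.53, -0.47 and -0.61 to 0.23, 0.08, 0.64 and 0.54, a change of 0.88 (1.84-fold, limma's adjusted p = 0.000757), whereas Hoxa6 did not pass the test (-0.0057, adjusted p = 0.958) and Hoxc6 passed the adjusted p (0.0267) but not the fold, with 1.46-fold. Hoxa10 went from -1.85, -2.04, -1.64 and -2.01 to -0.97, -1.01, -1.17 and -0.77, without overlap and with a change of 0.90 (1.87-fold, limma's adjusted p = 0.000887). Its paralog Hoxd10 had a value of -0.06 (adjusted p = 0.38), but its Cy3 signal passed the negative control level on 1 of 12 arrays. A fall could therefore not be seen with this probe, and a small rise could be missed.

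**Figure D2:**
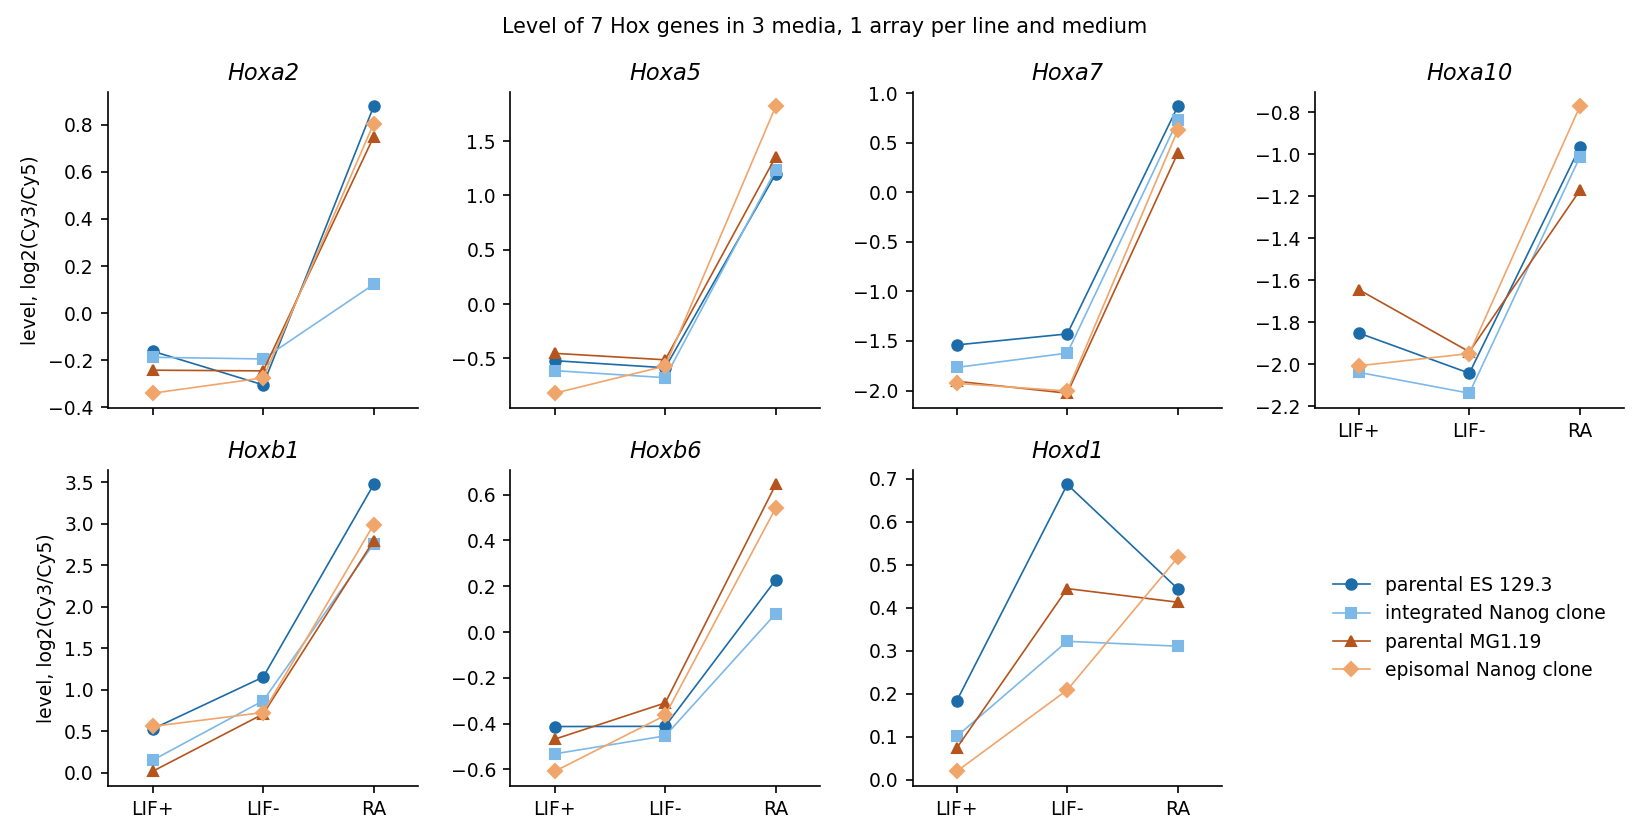
Level of 7 Hox genes as log2(Cy3/Cy5) on the y axis in LIF+, LIF- and RA medium on the x axis, with 1 point per array and lines joining the 3 arrays of a cell line. The y axes differ between panels. In 6 panels the RA points stand apart from both other media, and in the Hoxd1 panel LIF- and RA lie in the same range, 0.21 to 0.69 and 0.31 to 0.52.

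By cluster, 4 of 8 Hoxa and 2 of 7 Hoxb genes were called on RA, and 0 of 5 Hoxc and 0 of 5 Hoxd genes. The Hoxc count depended on the processing: it was 2 with a background offset of 20 (Hoxc6 at 0.59 and Hoxc9 at 0.61), 1 with Feature Extraction signals (Hoxc9, 0.59) and 1 without the integrated clone (Hoxc6, 0.64). The median changes were 0.57 in Hoxa, 0.38 in Hoxb, 0.37 in Hoxc and 0.13 in Hoxd. The zero counts do not stand for unmoved genes, since Hoxc6, Hoxc9 and Hoxd1 passed the adjusted p at changes below 1.5-fold, as did Hoxa9, Hoxb8 and Hoxb13. With these 6 the members at an adjusted p of at most 0.05 were 12 of 25, against 14.5% of all tested. At an unadjusted p below 0.05 they were 16 of 25, against 26.7% of all tested.

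By paralog number, 3 of the 10 genes numbered 1 to 5 were called, 2 of the 5 numbered 6 to 8 and 1 of the 10 numbered 9 to 13, with median changes of 0.33, 0.55 and 0.10. The rank correlation of change with paralog number across genes was -0.325 over the 25, -0.476 over the 8 Hoxa genes and -0.357 over the 7 Hoxb genes. It is given as a description, since neighbouring genes in a cluster share the same 12 arrays and are not independent, and no difference between clusters or numbers was tested. The order along the Hoxa cluster was not even: Hoxa6 lies between Hoxa5 and Hoxa7, which changed 4.02-fold and 5.43-fold, and stayed between -0.11 and 0.12 in all 4 lines. Hoxa6 levels lay between -0.02 and 0.17 in all 3 media, and whether this probe can respond was not tested.

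Leaving LIF out for the same 3 days gave no called Hox gene by limma (0 of 25, with 3 at an unadjusted p below 0.05), where 1.02% of all tested were called and 14.3% had such an unadjusted p. The highest change was that of Hoxb1, with LIF- levels of 1.15 in ES 129.3, 0.87 in the integrated clone, 0.71 in MG1.19 and 0.73 in the episomal clone. All 4 were above the highest LIF+ level of 0.56, a separation found for Hoxb1 and Hoxd1 (2 of 25) and for 1.89% of all tested. The change of 0.55 (SE 0.10, limma's adjusted p = 0.0375) was 1.46-fold, just under the fold threshold, and Hoxb1 was the 1 Hox gene of 25 at an adjusted p of at most 0.05, which 1.94% of all tested reached. It passed the threshold in the authors' normalized values, where it was 0.63, and with the Feature Extraction signals, with a lower background offset and without the episomal clone, in which the change was 0.17 against 0.62 to 0.72 in the other lines. On RA the same gene changed by 2.69. Hoxd1 changed by 0.32 without LIF (adjusted p = 0.0898) and by 0.33 on RA, and both media lay above all LIF+ levels. Hoxc12, with the lowest value, changed by -0.14 (adjusted p = 0.248). The changes of Hoxa5 and Hoxa7 without LIF lay between -0.12 and 0.25 in every line. Both media are set against the same LIF+ arrays.

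The Nanog transgenes were tested by their effect on the RA response and on the level in all media. Lines were grouped by label, although the Nanog level of the episomal clone in LIF+ medium, 1.28, was below the 1.91 of MG1.19. No Hox gene was called for a different RA response in transgenic and parental lines, for one between the 129SvEv-Tac and 129Sv lines, or for its level in transgenic lines, where 0%, 0% and 0.00531% of all tested were called, so that these tests called next to nothing for any gene. By limma 2, 3 and 4 of 25 Hox genes had an unadjusted p below 0.05, where 6.63%, 9.68% and 19.5% of all tested did. For the RA response, transgenic minus parental, the highest difference was that of Hoxa5, 0.48 (95% interval -0.089 to 1.05, adjusted p = 0.724), and the lowest that of Hoxc4, -0.55 (95% interval -0.85 to -0.24, adjusted p = 0.724). The intervals are not adjusted for the number of genes tested, and these genes were picked as the extremes of 25. That of Hoxa5 holds 0 and that of Hoxc4 does not, but neither gene passes the adjusted p. Differences of this size are neither shown nor shut out. Between strains the extremes were Hoxb6 at -0.50 (95% interval -0.71 to -0.30, adjusted p = 0.321) and Hoxb4 at 0.54 (95% interval 0.07 to 1.01, adjusted p = 0.48). These intervals leave out 0, with the same limits. The Hoxb4 value includes the ES 129.3 LIF+ level of -0.55, against -0.06 to 0.09 in the other lines. In level, transgenic minus parental, the extremes were Hoxc6 at -0.37 (adjusted p = 0.164) and Hoxa9 at 0.06. With 2 lines of each kind, strain cannot be told apart from the extraction date given in the file headers. Nor can it be told apart from the large T antigen of MG1.19, from which the episomal clone was made. The parental lines also differ in passage.

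During Pou5f1 suppression on the late arrays, none of the 27 Hox genes was called by limma at any time, while the share called among all tested grew from 7.57% at 24 hr to 10.3%, 14.3%, 17.8% and 20.6% at 48, 72, 96 and 120 hr. At an unadjusted p below 0.05 they were 2 of 27 at 24, 48, 96 and 120 hr and 4 of 27 at 72 hr, where 40% (24 hr) to 50.4% (120 hr) of all tested had such a p. The changes from 0 hr were small, from -0.34 to 0.27 over all 5 times, with a median over the 27 genes of -0.012 at 120 hr. In limma's F test over all times 0 of 27 were called, with 4 at an unadjusted p below 0.05, where 24.5% of all tested were called and 54.8% had such a p.

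**Figure D3:**
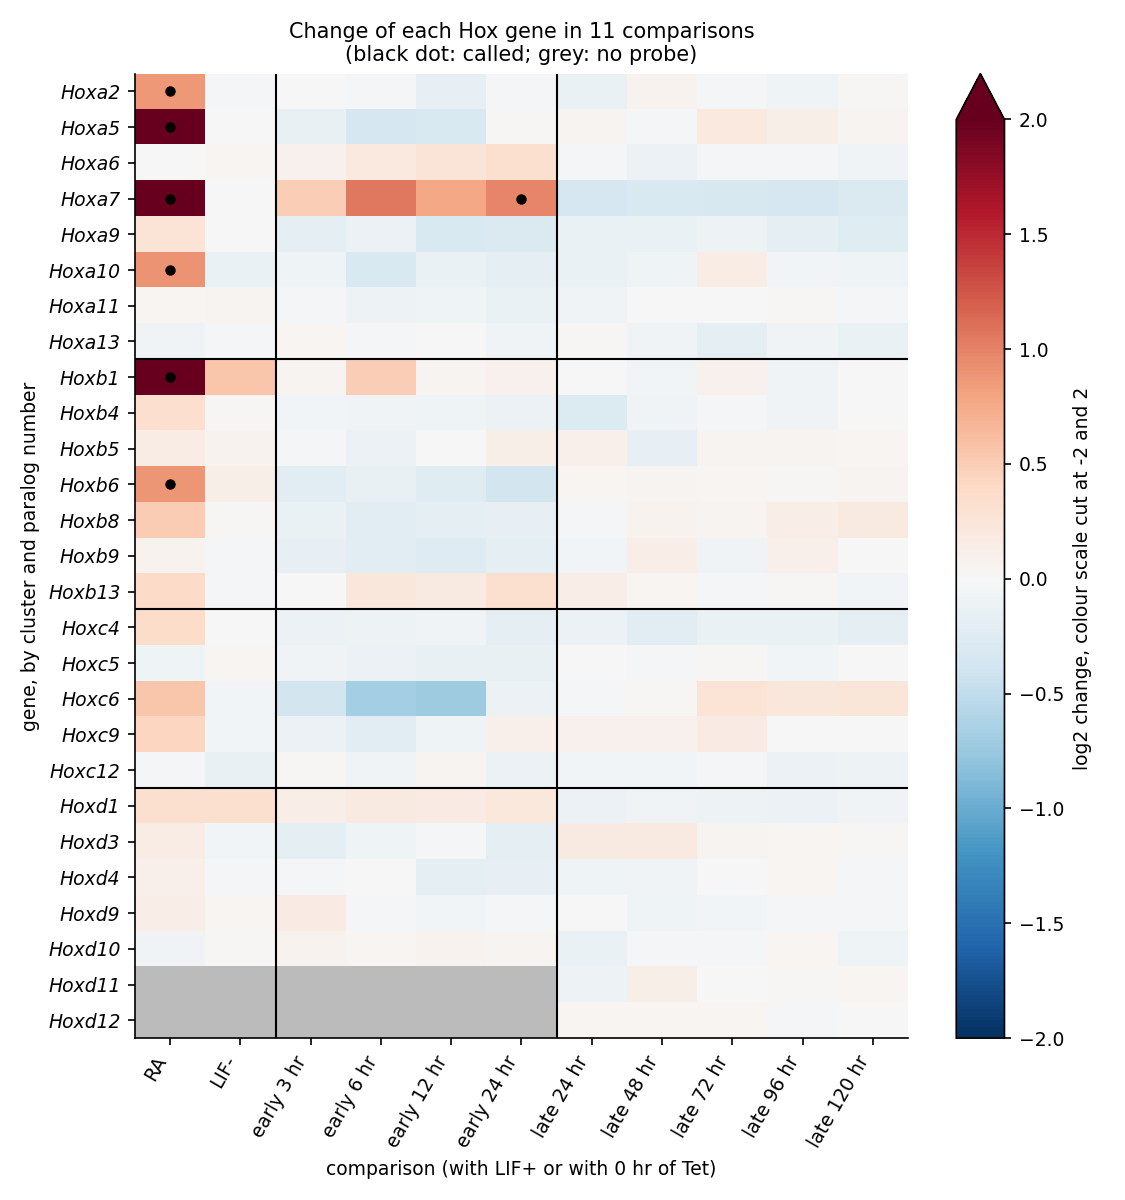
Change of each Hox gene (rows, by cluster and paralog number) in 11 comparisons (columns) as a colour, blue for lower and red for higher, on a log2 scale cut at -2 and 2. Black dots mark called genes and grey cells genes with no probe on that design. The RA column holds 6 dots, the LIF- column 0, the early columns 1 (Hoxa7 at 24 hr) and the late columns 0.

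Some late values passed the adjusted p without the fold. The share of all tested that did so was not counted. At an unadjusted p below 0.05 the Hox genes lay below the share of all tested at every late time. Hoxa7, the trunk gene that rose on RA, was lower at all 5 later times, by -0.34 to -0.30 (adjusted p = 0.0109 to 0.0268 by limma). Its 0 hr arrays, at -1.62, -1.68 and -2.05, overlapped the later ones through the lowest of them, and the negative control spots were also brighter at 0 hr, with medians of 573 to 586 against 480 to 549 later. The part of that background in the Hoxa7 difference was not tested. Hoxa5 was higher at 72 hr by 0.19 (adjusted p = 0.0143 by limma). Its levels were -0.60, -0.63 and -0.74 before Tet against -0.43, -0.47 and -0.49 after 72 hr, without overlap, and at 120 hr they were -0.51, -0.64 and -0.68, within the range of 0 hr but for the first array. Hoxc4 was lower at 48 hr by -0.22 and at 120 hr by -0.19 (adjusted p = 0.00589 and 0.0102). Its levels of 0.06, 0.05 and -0.07 before Tet lay above those of 48 hr, at -0.26, -0.19 and -0.16, but on 2 of the 3 arrays at 48 hr its Cy3 signal did not pass the negative control level used above. Hoxb4 was lower at 24 hr by -0.28 (adjusted p = 0.0148), and its signal passed that level on none of the 6 arrays behind the value.

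The highest late values were not past the test. They were those of Hoxd3 at 24 and 48 hr, 0.18 and 0.17 (adjusted p = 0.304 and 0.31 by limma), and of Hoxc6 at 72, 96 and 120 hr, 0.27, 0.23 and 0.25 (adjusted p = 0.376, 0.431 and 0.383). The 3 arrays of 1 time were further apart than these changes, with Hoxc6 levels of -2.64, -2.91 and -2.16 at 24 hr. Hoxb1, with the largest RA change described above, had mean late levels between -0.17 and -0.0089 and passed the test at no time.

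**Figure D4:**
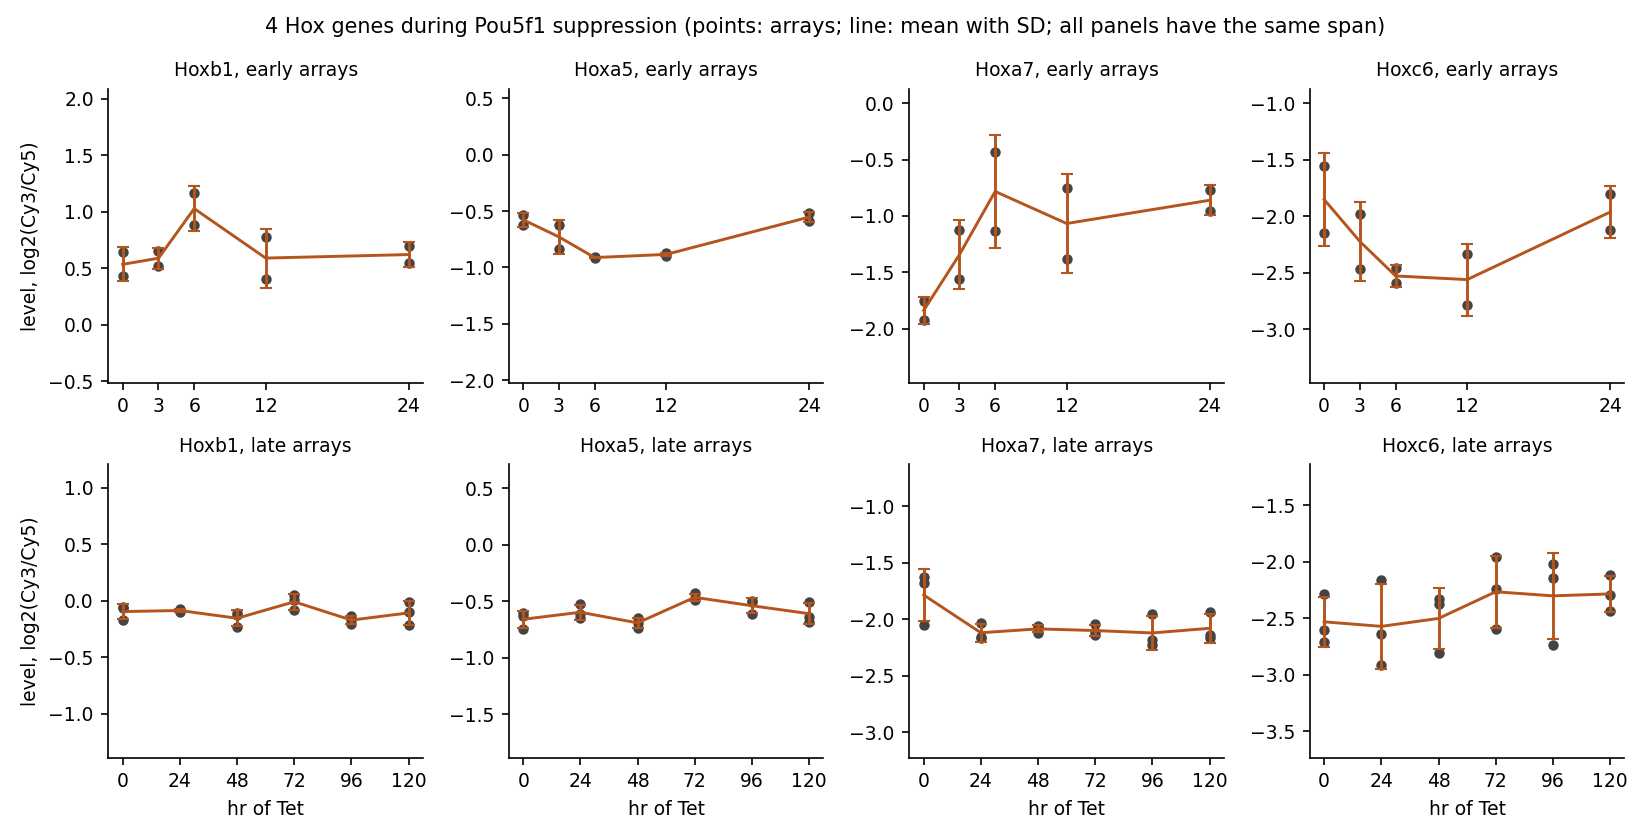
Levels of Hoxb1, Hoxa5, Hoxa7 and Hoxc6 as log2(Cy3/Cy5) on the y axis against hr of Tet on the x axis, on the early arrays (top, 2 arrays a time) and the late arrays (bottom, 3 arrays a time). Points are arrays and the line joins the means with their SD. The later Hoxa7 points lie above 0 hr on the early arrays and not on the late ones, and mean late Hoxb1 levels stay between -0.17 and -0.0089.

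On the early arrays 1 of 25 Hox genes was called, Hoxa7 at 24 hr, where 8.83% of all tested were called at that time and 0%, 2.17% and 0.598% at 3, 6 and 12 hr. Its levels on the 2 arrays of each time were -1.92 and -1.75 before Tet, then -1.56 and -1.13 after 3 hr, and -1.14 and -0.43 after 6 hr. Later they were -1.38 and -0.75 (12 hr), then -0.95 and -0.77 (24 hr), so that every treated array lay above both untreated ones. The change at 24 hr was 0.98 (1.97-fold, limma's adjusted p = 0.0272), and those at 3, 6 and 12 hr were 0.49, 1.05 and 0.77 (adjusted p = 0.734, 0.0642 and 0.169). The 2 channels did not move alike. Normalised log2 Cy3, from the cells, changed by 0.19 at 24 hr and Cy5, from the reference RNA, by -0.79, although the same reference was used on every array. Raw Cy3 signals were 518 and 528 before Tet, against 560 and 569 after 24 hr. Raw Cy5 signals were 909 and 1077 before Tet, against 700 and 648. With Cy3 alone the change was 0.16 (adjusted p = 0.179), in the authors' normalized values it was -0.08, and after the study's correction for the bleaching of Cy5 it was -0.02. It lost the call without either 0 hr array or without the second 24 hr array (adjusted p = 0.0982 to 0.124). On the late arrays at the same time point the value was -0.33.

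**Figure D5:**
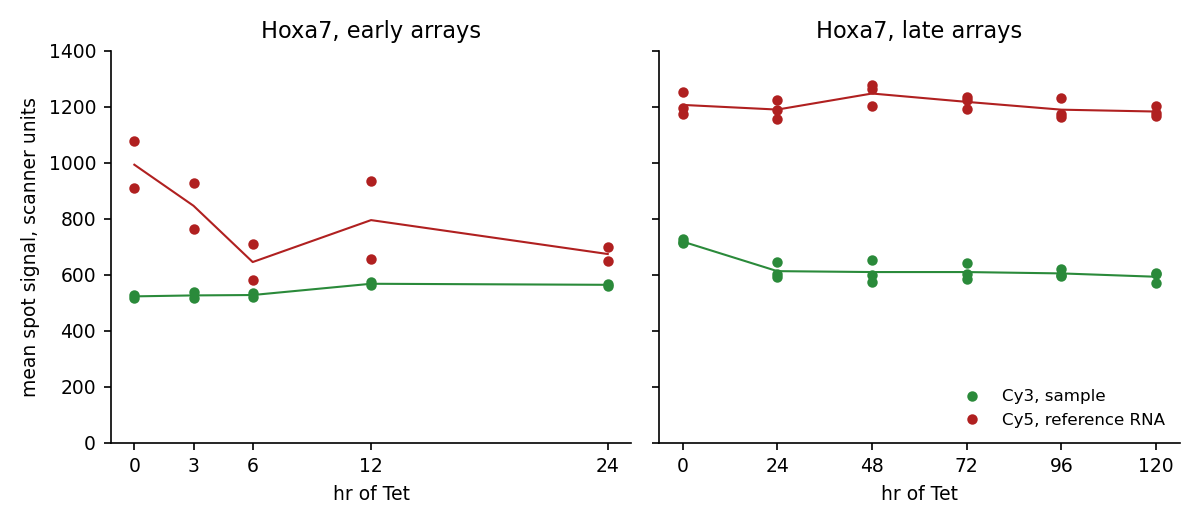
Mean spot signal of the Hoxa7 probe in scanner units on the y axis, from 0, against hr of Tet on the x axis, for the early arrays (left) and the late arrays (right). Green points are Cy3, the cells, and red points are Cy5, the reference RNA, with lines through the means. On the early arrays the green points stay between 516 and 573 while the red ones range from 583 to 1077.

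On the early arrays Hoxb6 at 24 hr (-0.37, adjusted p = 0.0208) and Hoxb13 at 24 hr (0.33, adjusted p = 0.048) passed the adjusted p in limma without the fold. At that time 5 of 25 Hox genes had an unadjusted p below 0.05, where 38.9% of all tested did. Hoxc6 had the lowest values of the early arrays, -0.68 at 6 hr and -0.71 at 12 hr, with adjusted p of 0.167 and 0.164 in limma, and was at -0.11 at 24 hr. Hoxb1 had values of 0.05 to 0.49, the highest at 6 hr (adjusted p = 0.12). At 6 hr its normalised log2 Cy3, from the cells, changed by 0.04 and Cy5, from the reference RNA, by -0.46. No early F test over all times called a Hox gene, where 5.25% of all tested were called. The smallest adjusted p were those of Hoxa5 (0.0836) and Hoxa7 (0.102), and 6 of the 25 genes had an unadjusted p below 0.05, as did 25.3% of all tested.

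Genes that act with the Hox genes were read from lists that were chosen with earlier results of these data known. Of 15 genes of RA metabolism and reception, 5 were called higher on RA and none lower: Cyp26a1 (2.65), which degrades RA, the receptor Rarb (2.10), the retinal reductase Dhrs3 (1.28), the retinol dehydrogenase Rdh10 (1.14) and the retinol transporter Stra6 (1.03). Of 6 TALE cofactors, 2 were called higher, Meis1 (3.08) and Meis2 (2.91). Of 10 Cdx, ParaHox, Evx and hindbrain regulators of Hox genes none was called on RA, with 5 at an unadjusted p below 0.05 in limma. On RA 5.86% of all tested were called, 4.66% higher, and 26.7% had such an unadjusted p. Without LIF none of these 3 lists held a called gene, where 1.02% of all tested were called. At 120 hr of Tet, where 20.6% of all tested were called in either direction, 3 of 14 RA genes were higher, the receptor Rxra (2.50), Stra6 (0.81) and Dhrs3 (0.63), and Crabp1 (-0.74), an RA carrier in the cytoplasm, was lower. These 4 of 14 are near that share. Among the cofactors Pknox1 (0.70) was higher and Meis2 (-0.60) lower, Meis2 with a Cy3 signal above the negative control level on 7 of the 18 late arrays, and none of the 10 regulators was called. These regulators include Cdx2, for which the paper relied on PCR because its array probe did not respond. In the paper Cdx2 was activated after Pou5f1 suppression, so the missing call under Tet does not show that Cdx2 stayed unchanged.

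Markers of cell types were called on RA and under Tet, and few without LIF. Without LIF 1 of 10 trophoblast markers was higher and 2 of 10 ES cell markers were lower. The other marker lists held no called gene in that medium, where 1.02% of all tested were called. On RA 5 of 9 primitive and parietal endoderm markers, 5 of 10 trophoblast markers and 4 of 8 embryonic fibroblast markers were higher. Of the ES cell markers 5 of 10 were lower. On that medium 5.86% of all tested were called, 4.66% higher. Of neural and mesoderm markers 0 of 6 and 0 of 7 were called, which is near that share. The mean level of the fibroblast list, a cell type that carries many Hox genes and is used as feeder, here passaged away on gelatin before the experiment, was -2.13 to -1.58 in the 4 LIF+ arrays and -1.83 to -0.64 in the 4 RA arrays. Of its 8 genes 7 were above the negative controls on all 12 arrays. The lines differed: on RA Col1a1, Col1a2, Dcn and Twist1 changed by -0.06, 0.06, 0.34 and 0.09 in the integrated clone. In the other lines these genes changed by 0.54 to 1.71. The remaining genes of the list, Col6a2, Lum, Postn and Thy1, were not lowest in the integrated clone. The part of other cell types in the RA changes of Hox genes was not tested. At 120 hr of Tet 8 of 10 trophoblast markers were higher and 8 of 10 ES cell markers lower, where 20.6% of all tested were called.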

How the data were processed

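Total RNA in Cy3 and reference RNA in Cy5 were hybridised without dye swaps. Mean spot and median background intensities (scanner units) were deposited as the authors' Agilent Feature Extraction 7.5.1 output. Its log10 ratio and processed intensities, and the authors' own normalized table, were used in alternatives. That deposited table holds log10 ratios in which 1 column also has a code for missing values and is held as a score. Intensities were corrected with normexp (offset 50), loess-normalized within arrays and read as log2(Cy3/Cy5), without control spots. Dim values are compressed by the offset, so low folds are understated. Signal over background, not depth, limits precision. limma 3.58.1 in R 4.3.3 (lmFit, eBayes) fitted line and medium over 12 arrays, line, medium and their interaction with transgene or strain, 6 pairs of strain and medium for transgenic against parental, and time as a factor in each Tet experiment. Where a gene had several probes the brightest stood for it. The fit was tested on simulated data. Gene names came from accessions and RefSeq, and those of Hoxb1 and Hoxb9 through the paper's tables. Of the 28 genes found by the rule 27 are described; the other, and some genes of the lists, are not reported here, and ranks and counts over Hox genes cover the 27. Those called, those numbered 1 to 5 on RA and the extremes of each comparison were named with values, as were other members past the adjusted p. The members and lists were chosen with earlier results of these data known. Alternatives changed the normalization, channel, filter, variance, threshold, blocks and arrays used. The late arrays' protocol text describes another construct, and their titles and the paper give ZHBTc4.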

Additional observations from a re-analysis of the deposited data

Results flagged for a closer look

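In 6 of 50 sets of 4 line values (25 genes, RA and LIF-) the highest or lowest line stood far from the other 3 by Dixon's criterion, which chance alone gives in about 1 of 20 sets. For Hoxa5 it was the episomal Nanog clone in both media, with changes of 2.64 on RA and 0.25 without LIF. Both changes share its LIF+ array, which had the lowest LIF+ level, -0.82. Its RA level of 1.82 was the highest, but its LIF- level of -0.57 lay within those of the other lines. The same clone stood low for Hoxb1 without LIF, at 0.17. It also stood high for Hoxd10 on RA, at -0.0046, but that probe passed the negative control level on 1 of 12 arrays, so its spread between lines is that of a signal near background. ES 129.3 stood high for Hoxb4 without LIF, at 0.41, and the integrated clone low for Hoxc5 on RA, at -0.27. The Hoxb4 LIF- level of ES 129.3, -0.14, lay within those of the other lines. Its LIF+ level of -0.55, from 1 array, was below theirs, -0.06 to 0.09.

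Hoxa7 at 24 hr of Tet was at 0.98 on the early arrays and at -0.33 on the late arrays, each against 0 hr of its own experiment. The difference between these was not tested, and design, RNA and experiment differ between them.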

How the results depend on the processing

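The count of Hox genes called on RA was 6 and stayed within 5 to 8 when 1 line was left out (5 without MG1.19, 8 without the integrated clone), and within 5 to 9 under the other alternatives, except for 3 at a 2-fold threshold. Without LIF, 0 became 1, Hoxb1, with the authors' normalized values, with Feature Extraction signals, with an offset of 20 and without the episomal clone (0 to 1 over the lines left out). The late count of 0 became 1 with Cy3 alone, through Hoxa5 at 72 hr (0.68, adjusted p = 0.00083), and was 0 whichever array was left out. The early count of 1 became 0 with the authors' values, Cy3 alone, the bleaching correction, the study's error variance and the 2-fold threshold, 3 with Feature Extraction signals, and 0 to 1 when an array was left out. The cause of these shifts was not tested. Of the transgene and strain tests, none gave a called Hox gene under any alternative run.

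Some values changed sign. On RA, Hoxd3 was -0.018 and Hoxa11 -0.055 with Cy3 alone. Without ES 129.3, Hoxa6 was 0.028 and Hoxa11 -0.012. Hoxa6 was 0.0091 without MG1.19, and Hoxc12 was 0.0040 without the integrated clone. With 1 line left out, Hoxa6 ranged from -0.046 to 0.028, Hoxa11 from -0.012 to 0.071 and Hoxc12 from -0.074 to 0.0040. On the late arrays, Hoxc6 was -0.034 at 96 hr and -0.073 at 120 hr with Feature Extraction signals, and Hoxd3 was -0.011 at 48 hr with Cy3 alone. Hoxa7 at 24 hr on the early arrays was -0.079 with the authors' values and -0.019 after the bleaching correction.

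Same-numbered arrays deviated together with correlations of -0.43 to 0.748 (late, mean 0.151) and -0.136 to 0.337 (early, mean 0.114). These ranges do not settle whether replicate numbers pair the arrays. With the replicate number as a block, 0 late and 1 early Hox genes were called, and Hoxa7 on the early arrays also at 6 hr (adjusted p = 0.00685) and 12 hr (0.0366).

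A block on scan date was not run: the headers hold an extraction date, of which each Tet experiment has 1, and in the Nanog experiment it goes with strain. Counting probes singly changed nothing, with 1 probe per Hox gene. The authors' tables hold 24 of 25 early and 26 of 27 late Hox probes. On the late arrays the dim filter left 19 of 27 Hox genes.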
